A study of Mus musculus with 12 samples.

Results

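The major histocompatibility complex class II genes and Ciita were examined in Myc-CaP cells, an established prostate cancer cell line from an FVB/NJ mouse in which Myc drives the tumor. The members were 7 listed genes of the 55216 in the table: Ciita, Cd74, H2-Aa, H2-Ab1, H2-Eb1, H2-DMa and H2-DMb1. They were chosen by name and not by their values, although earlier results of these data were known. RNA-seq was done on 12 libraries in 6 groups of 2, all from cells kept for 48 h. Ctrl cells were untreated. IFN200 and IFN2000 cells received interferon γ (IFNγ) alone at 200 or 2000 pg, and the study's text gives these doses per mL. Oxali cells received only the platinum drug oxaliplatin at 2 μM, and Combo200 and Combo2000 cells received that dose of Oxali together with IFNγ at 200 or 2000 pg. The comparisons ask whether this epithelial tumor line switches on class II genes under IFNγ, with or without drug.

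Groups were taken from the sample titles, because in the 6 libraries with a single treatment the agent label names another treatment than the title. A list of 10 p53 targets, which respond to DNA damage, was read as a check of these labels. Its mean log2 ratio to Ctrl was 0.45 to 0.49 in the 6 libraries titled with Oxali and -0.10 to 0.03 in the other 6, so the titles were kept. Library totals ran from 18749975 to 25931516 counts. At this depth 3 counts correspond to 0.111 to 0.167 CPM (counts relative to the scaled size of each library), and a gene at or under 3 counts in a library was treated as not detected. This limit covers counting error only. Nothing in the labels says that the 2 libraries of a group came from separate cultures, so p-values measure only the spread between these libraries, which may be technical. The cells are a single line, and fewer cells carrying a transcript cannot be told apart from less of it in each cell.

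Class II molecules present peptides from the endosomal pathway to CD4 T cells. They are carried by B cells, dendritic cells and macrophages, and many other cells acquire them under IFNγ. IFNγ acts through its receptor and the kinases JAK1 and JAK2, and IRF1 is among the factors that switch on the IFNγ-responsive promoter of Ciita. The CIITA protein does not bind DNA itself. It is recruited by a complex of RFX, CREB and NF-Y proteins on the X and Y boxes of class II promoters. The invariant chain, encoded by Cd74, escorts new class II molecules, and H2-DM exchanges its remnant for a peptide.

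Few members were expressed without treatment. In Ctrl 2 of the 7 members, H2-DMa and H2-DMb1, were above 3 counts in both libraries, and the same number was found in IFN200. IFN2000 and Combo200 had 4 such members each, Oxali had 3 and Combo2000 had 5. H2-Ab1 and H2-Eb1 were not detected in any library. Thus the accessory genes were measurable in treated cells, whereas the chains that form the class II molecule itself were at or near 0.

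**Figure D1:**
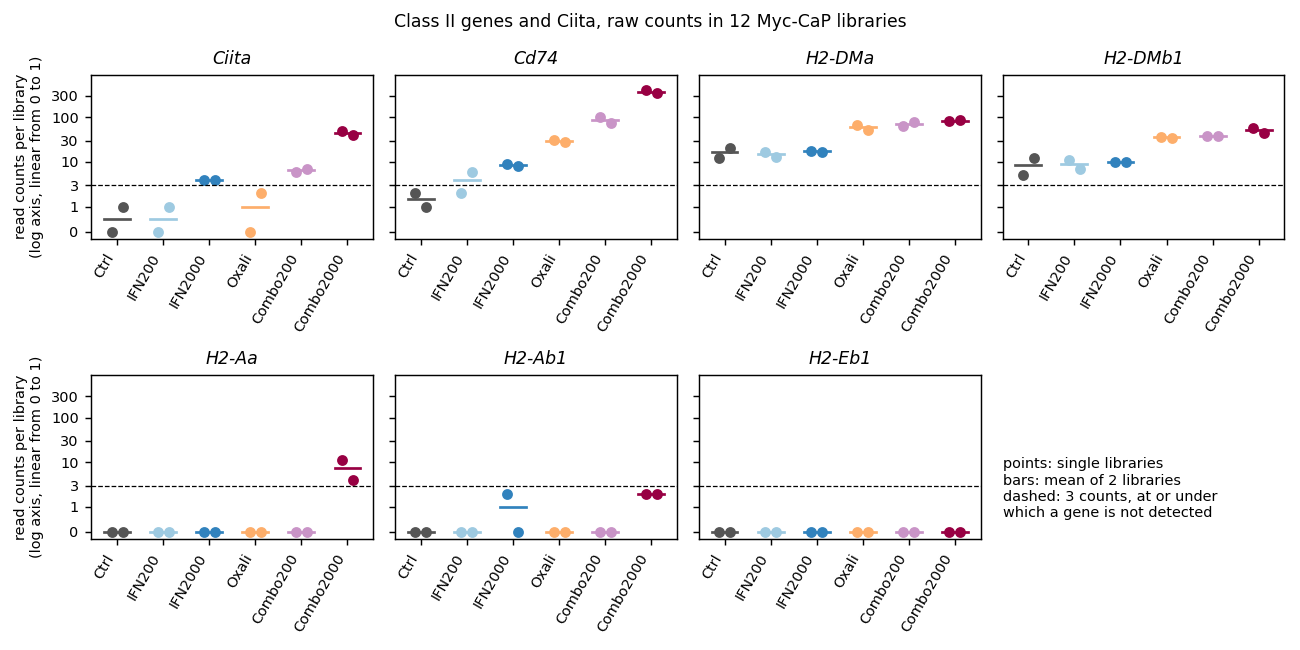
Raw read counts of the 7 members in each library, by group, on an axis that is logarithmic above 1 count and linear below it; points are single libraries, bars the mean of 2, and the dashed line marks 3 counts. Cd74 climbs from 1 and 2 counts in Ctrl to 352 and 396 in Combo2000, Ciita reaches 41 and 48 there, and H2-Eb1 lies at 0 throughout.

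Ciita, the co-activator of the class II genes, lies on chromosome 16 (10480059 to 10528418, plus strand, GRCm38). The Ctrl libraries held 0 and 1 counts, the IFN200 pair 0 and 1, and the IFN2000 pair 4 each. With Oxali the pair held 0 and 2 counts, the Combo200 pair 6 and 7, and the Combo2000 pair 48 and 41. Ciita was thus not detected in untreated cells, at the low IFNγ dose or under Oxali alone, stood just above the detection limit at the high IFNγ dose, and was highest in both Combo2000 libraries. Its mean level was 0.175 ± 0.00512 CPM in IFN2000, 0.266 ± 0.00625 CPM in Combo200 and 1.77 ± 0.00772 CPM in Combo2000 (SD, n = 2). The Combo2000 libraries did not overlap with those of any other group.

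Cd74, the invariant chain, lies on another chromosome than the class II cluster. The Ctrl libraries held 2 and 1 counts, the IFN200 pair 2 and 6, and the IFN2000 pair 9 and 8. The Oxali pair held 31 and 28 counts, the Combo200 pair 99 and 75, and the Combo2000 pair 396 and 352. Every library with Oxali lay above every library without it, and the order Oxali, Combo200, Combo2000 held without overlap. The mean levels of these 3 groups were 1.38 ± 0.0650, 3.61 ± 1.00 and 14.9 ± 0.355 CPM (SD, n = 2), against 0.0810 ± 0.0428 CPM in Ctrl.

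The classical chains form the peptide-binding molecule, I-A from H2-Aa and H2-Ab1, and I-E with H2-Eb1 as its β chain. H2-Aa had 11 and 4 counts in Combo2000 and 0 in the other 10 libraries. H2-Ab1 had 2 counts in each Combo2000 library, 2 and 0 in IFN2000, and 0 in the other 8 libraries. H2-Eb1 had 0 counts in all 12 libraries, which at this depth allows a level of up to 0.111 to 0.167 CPM, depending on the library. Of the 3 chains, H2-Aa alone passed the detection limit, in Combo2000 only, at 0.290 ± 0.166 CPM (SD, n = 2). The lower 95% limits for counting error of the Combo2000 ratio were 2.69 against Ctrl and 3.27, 3.05 and 3.49 against IFN2000, Oxali and Combo200. Taken against 3 counts over the group, the ratios were 3.76 against Ctrl and 4.56, 4.25 and 4.86 against these 3 groups. These ratios are not lower bounds, because the limit of 3 counts holds for each library and the Combo2000 counts were taken as exact. The ratios also lean on Combo2000 replicate 2, with 11 of the 15 counts. From replicate 3 alone, whose 4 counts lay just above the limit for a library, they were 2.17 against Ctrl. Against the other 3 groups they were 2.63, 2.45 and 2.80. None of these 3 genes passed the low-count filter, so none entered the test. Without the filter H2-Aa was called against Ctrl (adjusted p = 0.0159) and IFN2000 (adjusted p = 0.00843), but not against Oxali (adjusted p = 0.101) or Combo200 (adjusted p = 0.161). Each of these reference groups held 0 counts of H2-Aa, so this split is not read as a difference between them. The adjustment also depends on the share of genes called in each comparison.

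The promoters of these chains are shown because the recruitment sites of the CIITA complex are defined by sequence. RefSeq promoter windows (250 bases before to 50 after a start, GRCm38.p6) were matched for 4 of the 7 members, H2-Aa, H2-Eb1, H2-DMb1 and, with 2 windows, H2-DMa, and not for Ciita, Cd74 and H2-Ab1. The motifs were chosen after the sequences were seen and were searched on both strands: the X box core AACNGATG, the X2 box TGACGTCA and the Y box CCAAT, which reads ATTGG on the other strand. The stretch around the X or X2 box and the Y box is given 5′ to 3′ on the gene's strand, with the matched letters in capitals. H2-Aa is at chr17:34287847-34287917 (minus strand), H2-Eb1 at chr17:34305758-34305832 and H2-DMb1 at chr17:34153079-34153154 (both plus strand). The start of H2-DMb1 in GENCODE is 119 bases from its RefSeq start, so its stretch lies inside the GENCODE gene. For H2-Aa and H2-Eb1 the starts are the same.
H2-Aa: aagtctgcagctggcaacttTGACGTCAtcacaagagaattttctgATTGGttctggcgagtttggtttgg
H2-Eb1: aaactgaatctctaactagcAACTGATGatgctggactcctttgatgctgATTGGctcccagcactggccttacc
H2-DMb1: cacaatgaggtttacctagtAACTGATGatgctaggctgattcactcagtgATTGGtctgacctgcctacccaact
H2-Eb1 and H2-DMb1 hold the same X box core, 30 and 31 bases ahead of the Y box, and H2-Aa holds an X2 box 26 bases ahead of it. Neither window of H2-DMa holds an X or X2 match, and 1 holds a Y box. Of 32851 RefSeq windows, 2.32% hold the X box core, 1.79% the X2 box and 37.4% the Y box, while 0.880% hold X and Y and 0.642% hold X2 and Y. A match is a description of letters and not of binding. The pair of H2-Eb1, whose counts were 0 in every library, resembles that of H2-DMb1, which was detected in all 12. The reference is C57BL/6J and the line comes from FVB/NJ, so letters may differ in these cells, and the part of strain differences in the counts was not tested.

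H2-DMa and H2-DMb1 encode the α and β chains of H2-DM, the peptide exchange factor, and lie in the class II cluster on chromosome 17 (34119541 to 34139101 and 34153072 to 34160230, both on the plus strand). Ctrl libraries held 12 and 21 counts of H2-DMa, the IFN200 pair 17 and 13, and the IFN2000 pair 18 and 17. Oxali libraries held 67 and 53, the Combo200 pair 63 and 80, and the Combo2000 pair 82 and 85. The 6 libraries with Oxali lay above the 6 without it, and IFNγ libraries overlapped with Ctrl. Ctrl libraries held 5 and 12 counts of H2-DMb1, the IFN200 pair 11 and 7, and the IFN2000 pair 10 each. Oxali libraries held 37 and 34, the Combo200 pair 38 and 39, and the Combo2000 pair 56 and 45, the same division by Oxali. H2-DMb1 shares 22.7% of its 50-base words with H2-DMb2, a second β chain gene beside it, so reads could have been lost or split between them and their values are uncertain. H2-DMa shares 360 exon bases with Brd2 on the opposite strand, and Ciita shares 329 with Dexi. Whether the counting used the strand is not stated in the sources used here. Brd2 held 6026 to 9476 counts per library. Against Ctrl its log2 fold change was 0.02 in Oxali (adjusted p = 0.651) and 0.09 in Combo2000 (adjusted p = 0.0290). Dexi, with 259 to 449 counts per library, was 0.22 higher on the log2 scale in Combo2000 than in Ctrl (adjusted p = 0.0489). The part of Brd2 and Dexi reads in the H2-DMa and Ciita counts was not tested.

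Levels of different genes were set side by side only as CPM per kilobase of exon. In Combo2000 the order was Cd74 at 8.89, H2-DMb1 at 1.19, H2-DMa at 0.972, Ciita at 0.186, H2-Aa at 0.0763, H2-Ab1 at 0.0312 and H2-Eb1 at 0. H2-DMa, at 0.881 to 1.06, and H2-DMb1, at 1.15 to 1.23, were neighbours whose libraries did not overlap but lay close together. H2-Aa, at 0.0454 to 0.107, stayed below Ciita. In Ctrl the order differed, with H2-DMb1 at 0.264 and H2-DMa at 0.251, which overlapped, above Cd74 at 0.0482 and Ciita at 0.00266.

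Of the 7 members, 4 passed the low-count filter and were tested (edgeR's quasi-likelihood test, Benjamini-Hochberg adjustment over 13177 genes). Ciita passed through its Combo2000 libraries alone and Cd74 through the 3 groups with Oxali, so these genes had to differ between some groups. Nothing is read from the number of members called, and counts of called members are given beside the share of all tested genes called in the same direction. With IFNγ alone, none of the 4 was called. In IFN200 against Ctrl 0.114% of tested genes were called higher and no member was, also by DESeq2, and no member had an unadjusted p under 0.05. In IFN2000 against Ctrl 8.39% were called higher. No member was called there by edgeR, although Cd74 and Ciita had an unadjusted p under 0.05. DESeq2 gave an adjusted p only to Cd74 (0.0884) and H2-DMa (0.852). For Cd74 the ratio of summed counts was 4.67 (95% counting interval 1.35 to 24.9) with an adjusted p of 0.0632. This p was 0.0395 without Combo200 replicate 2, 0.0387 without Combo200 replicate 3 and 0.0463 without the low-count filter. For Ciita the ratio was 6.59 (0.884 to 293), with an adjusted p of 0.136. The H2-DM genes differed from Ctrl by -0.19 ± 0.34 (H2-DMa) and -0.04 ± 0.44 (H2-DMb1) on the log2 scale (± SE), so that a rise of the size seen with Oxali lay outside both 95% intervals, which ended at 0.474 and 0.824.

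In Oxali 3 of the 4 tested members were higher than in Ctrl, against 34.8% of tested genes called higher. Cd74 was 17.4 times Ctrl in summed counts (5.66 to 86.7, adjusted p = 3.43e-06). On the log2 scale H2-DMa was 1.68 ± 0.26 higher (± SE, adjusted p = 1.22e-05) and H2-DMb1 1.87 ± 0.34 higher (adjusted p = 6.32e-05). Without Ctrl replicate 2 the H2-DMb1 difference was 2.56, and without Ctrl replicate 1 the fitted log2 difference of Cd74 was 4.62 in place of 4.03. Ciita, at 0 and 2 counts, was not called (adjusted p = 0.682) and was below detection in both libraries in which these 3 genes were higher.

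In the combinations all 4 tested members were higher than in Ctrl, a count that the filter fixed in part for Ciita and Cd74, and 35.6% (Combo200) and 35.7% (Combo2000) of all tested genes were called higher. Cd74 reached 44.8 times Ctrl in Combo200 (15.1 to 219, adjusted p = 1.49e-09) and 187 times in Combo2000 (63.8 to 910, adjusted p = 5.90e-14). Ciita reached 10.0 times Ctrl in Combo200 (1.51 to 427, adjusted p = 0.0103) and 66.9 times in Combo2000 (11.7 to 2670, adjusted p = 1.07e-07). The Combo200 call of Ciita, which rests on 13 counts against 1, was lost with DESeq2 (adjusted p = 0.0589) and without Ctrl replicate 1 (adjusted p = 0.0840). H2-DMa and H2-DMb1 were 1.92 ± 0.25 and 2.14 ± 0.32 higher in Combo2000 than in Ctrl on the log2 scale (adjusted p = 1.03e-06 and 6.05e-06). The Ciita and Cd74 ratios to Ctrl rest on 1 and 3 counts: without Ctrl replicate 2, which held the only Ciita read, the fitted log2 difference of Ciita in Combo2000 was 8.34 in place of 5.79, and without Ctrl replicate 1 it was 4.98, with Cd74 at 8.05 in place of 7.45. Without Ctrl replicate 2 the H2-DMb1 difference in Combo2000 was 2.83.

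**Figure D2:**
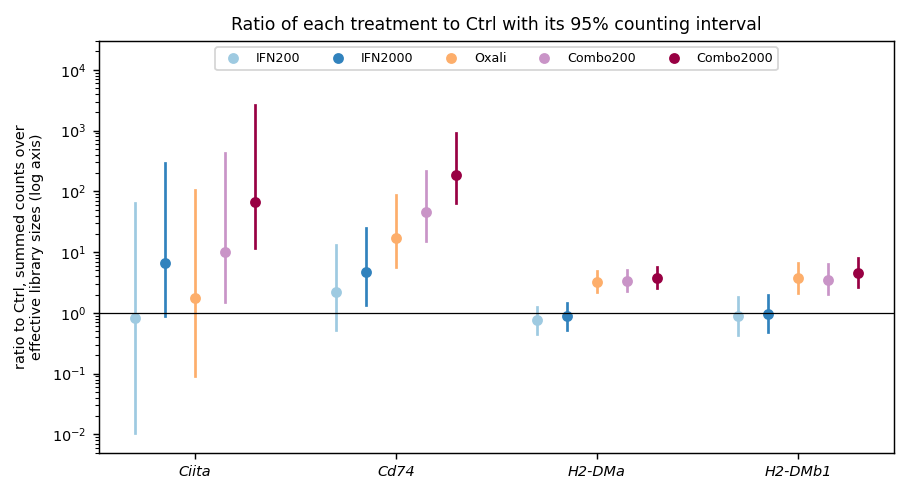
Ratio of each treated group to Ctrl for the 4 tested members, from summed counts over scaled library sizes, on a logarithmic axis; points are ratios of 2 against 2 libraries and lines their 95% counting intervals. Cd74 rises in steps to 187 and Ciita to 66.9. The H2-DM ratios are 0.751 to 0.970 with IFNγ alone and 3.21 to 4.46 in the 3 groups with Oxali. Both H2-DM genes have their highest ratio in Combo2000.

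When IFNγ was added to Oxali, not all members were called, and whether their changes differed from each other was not tested. Ciita passed the filter through Combo2000 alone, so the filter fixed its calls in that group in part. In Combo200 against Oxali 1.58% of tested genes were called higher, and 1 of 4 members was, Cd74, by 1.37 ± 0.23 (SE, adjusted p = 0.00100) on the log2 scale. Ciita, at 13 counts against 2, was not called by edgeR (adjusted p = 0.261) but had an unadjusted p under 0.05. In Combo2000 against Oxali 3.37% were called higher, and 2 of 4 members were. Cd74 was 3.43 ± 0.18 higher (adjusted p = 1.18e-11), and Ciita was 37.8 times Oxali in summed counts (10.2 to 317, adjusted p = 2.04e-06), a ratio that rests on the 2 reads of Oxali replicate 2. The fitted log2 difference was 8.34 without that library and 4.14 without Oxali replicate 1, in place of 5.08. H2-DMa and H2-DMb1 differed by 0.25 ± 0.19 (95% interval -0.125 to 0.616, adjusted p = 0.621) and 0.27 ± 0.23 (-0.183 to 0.728, adjusted p = 0.669). From the lower to the higher IFNγ dose with Oxali, 1.21% of tested genes were higher. Cd74 rose by 2.06 ± 0.14 (adjusted p = 4.73e-09) and Ciita by 2.71 ± 0.37 (adjusted p = 0.000110), while the H2-DM genes were not called. The same step without Oxali, in which 11.3% of tested genes were higher, gave no call among the members by edgeR, and Ciita had an unadjusted p under 0.05 (adjusted p = 0.0785). DESeq2 gave none of the 4 an adjusted p in that step.

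With Oxali added to IFNγ all 4 tested members were higher at both doses, a count that the filter fixed in part for Ciita and Cd74. The background was 36.5% of tested genes higher in Combo200 against IFN200 and 38.5% in Combo2000 against IFN2000. In the latter Cd74 rose by 5.31 ± 0.22 (adjusted p = 5.17e-14), Ciita by 3.30 ± 0.41 (adjusted p = 5.96e-07), H2-DMa by 2.12 ± 0.24 and H2-DMb1 by 2.19 ± 0.30 on the log2 scale. For Ciita this is 89 counts against 8, a ratio of 10.1 (4.93 to 24.2). At the lower dose the Ciita call (adjusted p = 0.00516) was lost without IFN200 replicate 1 (adjusted p = 0.0544), a library that also held heart muscle markers, and without both that library and IFN2000 replicate 2, which held T cell markers (adjusted p = 0.0593).

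The interaction asks whether the log2 change with IFNγ differs when Oxali is present. It was called higher for 0.562% of tested genes at 200 pg and 2.12% at 2000 pg, and for no member at either dose by edgeR, nor at an unadjusted p under 0.05. DESeq2 gave an adjusted p to 3 members at 200 pg, all but Ciita, and to Cd74 and H2-DMa at 2000 pg, and called none of these. At 2000 pg it was 1.28 ± 1.11 for Cd74 (95% interval -0.901 to 3.46, adjusted p = 0.624) and 2.59 ± 2.09 for Ciita (-1.50 to 6.69, adjusted p = 0.589). With 3 counts of Cd74 and 1 of Ciita in the Ctrl group, these intervals are too wide to tell an equal log2 change from an unequal one. On the linear CPM scale, with no test, Combo2000 lay above Ctrl plus both single effects, at 14.7 and 15.2 CPM against 1.67 for Cd74 and at 1.77 and 1.78 CPM against 0.197 for Ciita. For H2-DMa and H2-DMb1 the combination was 1.24 and 1.21 times that sum.

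Genes acting ahead of Ciita were higher with Oxali and, for 3 of them, with IFN2000. Of 10 listed genes 9 were tested, and the repressor Prdm1 was not, with 4 counts in IFN2000 replicate 2 and 0 in the other 11 libraries. In IFN2000 against Ctrl 3 were higher, beside 8.39% of all tested genes. Of these 3, Irf1 rose by 1.32 ± 0.05 and Socs1, an inhibitor of JAK kinases, by 1.27 ± 0.23 on the log2 scale. Jak2 was lower, with a log2 fold change of -0.12 ± 0.04, as were 8.47% of all tested genes in this comparison. In Oxali and in both combinations all 9 were higher, beside 34.8% (Oxali), 35.6% (Combo200) and 35.7% (Combo2000) of all tested genes. Ifngr2, a chain of the IFNγ receptor, went from 24 and 18 counts in untreated libraries to 106 and 93 with Oxali alone, a log2 rise of 2.06 ± 0.23, and was not called in IFN2000. Counts of Irf1 were 694 and 730 in the Ctrl pair, 2208 and 2104 in the IFN2000 pair, 2091 and 1973 in the Oxali pair, and 11660 and 10325 in the Combo2000 pair. Both Combo2000 libraries of Irf1 lay far above those of either single treatment. Irf1 was called in the interaction at 200 pg (1.17 ± 0.07), and Irf1 and Irf2 at 2000 pg (0.88 ± 0.07 and 0.31 ± 0.07). Cd74 and Ciita, which were not called, had larger values at 2000 pg with far larger errors (1.28 ± 1.11 and 2.59 ± 2.09). Whether the interactions of Irf1 and the members differed was not tested.

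**Figure D3:**
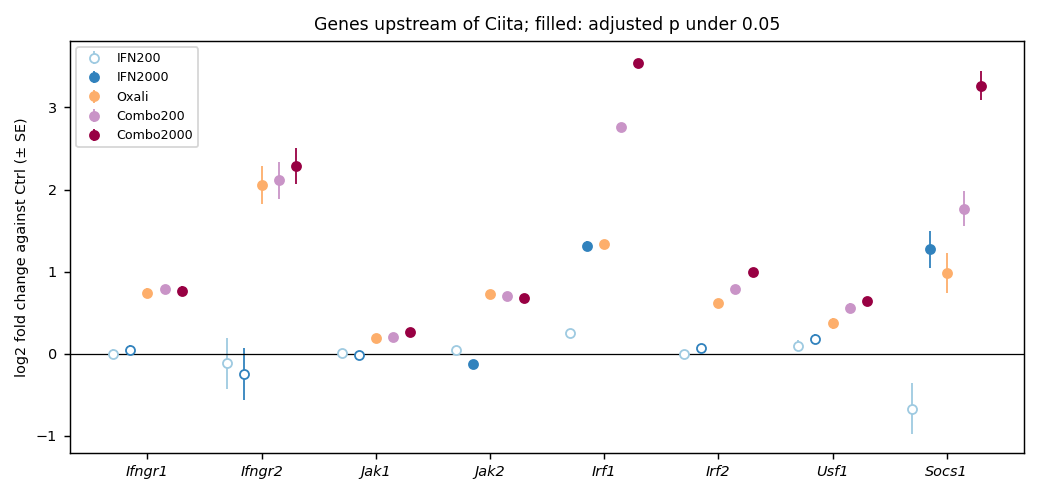
Log2 fold change against Ctrl (± SE, 2 libraries per group) for 8 genes that act ahead of Ciita; filled points have an adjusted p under 0.05. All 8 are filled in the 3 groups with Oxali, and Irf1 and Socs1 rise further in Combo2000, to 3.54 and 3.27.

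Of the promoter complex all 7 listed genes were tested. None was called with IFNγ alone at either dose by edgeR or DESeq2, and at an unadjusted p under 0.05 there were 1 higher and 1 lower in IFN200 and 1 higher in IFN2000. In Oxali and in both combinations 1 was higher and 6 were lower, where 32.8% (Oxali), 33.1% (Combo200) and 33.5% (Combo2000) of all tested genes were called lower. Rfx5, the DNA-binding subunit of RFX, went from 262 and 235 counts in untreated libraries to 543 and 534 with Oxali alone, a log2 rise of 0.94 ± 0.09. Creb1, Rfxank, Nfyc, Rfxap, Nfyb and Nfya were lower in Oxali, with log2 fold changes from -0.64 for Creb1 to -0.19 for Nfya.

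Of 10 genes of peptide processing and class II turnover 9 were tested. In Oxali and in both combinations 7 were higher and 2 lower, or 6 and 2 by DESeq2 in Combo2000. Of all tested genes 34.8% (Oxali), 35.6% (Combo200) and 35.7% (Combo2000) were called higher, and 32.8%, 33.1% and 33.5% lower. March1, a ubiquitin ligase that removes class II from the surface, rose by 2.34 in Oxali and 2.84 in Combo2000 on the log2 scale, and Lgmn, the lysosomal protease legumain, by 1.35 and 1.38. Ifi30, a lysosomal thiol reductase, was lower, with log2 fold changes of -0.65 in Oxali and -0.58 in Combo2000, and the chaperone gene Hspa8 was lower too. In IFN2000 Ifi30 and Hspa8 were higher, by 0.30 and 0.21, and March8 was lower. Ctss, the protease that cuts the invariant chain in professional presenting cells, had 8 counts in each Combo2000 library and at most 2 elsewhere, and did not pass the filter.

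Of the 5 other class II chains H2-DMb2 alone was tested. Its Ctrl libraries held 2 counts each, the IFN200 pair 9 and 8, and the IFN2000 pair 7 and 3. The Oxali pair held 26 and 25 counts, the Combo200 pair 23 and 22, and the Combo2000 pair 52 and 44. It was called higher in the 3 groups with Oxali, not with IFNγ alone, and was 1.05 ± 0.25 higher in Combo2000 than in Combo200 by edgeR (adjusted p = 0.0364) but was not called in that comparison by DESeq2 (adjusted p = 0.899). H2-Oa, H2-Ob, H2-Eb2 and H2-Ea-ps had at most 1 count in any library. Over all 4 lists 26 of 32 genes were tested. In IFN200 0 were called by edgeR or DESeq2, with 4 higher and 2 lower at an unadjusted p under 0.05. In IFN2000 5 were higher and 2 lower, beside 8.39% and 8.47% of all tested genes. With upper-quartile scaling these counts were 8 and 1. In each group with Oxali 18 were higher and 8 lower, beside 34.8% to 35.7% and 32.8% to 33.5% of all tested genes. DESeq2 called 17 higher in Combo2000. The medians of the 4 lists together were 0.56 in Oxali and 0.66 in Combo2000 on the log2 scale. The medians of all tested genes were 0.02 in both.

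Nlrc5, the class I counterpart of Ciita, was read beside it. Its Ctrl libraries held 2 and 0 counts, the IFN200 pair 16 and 9, and the IFN2000 pair 74 and 60. The Oxali pair held 3 and 2 counts, the Combo200 pair 223 and 201, and the Combo2000 pair 485 and 379. Nlrc5 was thus detected in both libraries of each group with IFNγ and, like Ciita, in neither Oxali library. Nlrc5 was called in IFN2000 against Ctrl (adjusted p = 5.35e-07) and not in Oxali (adjusted p = 0.432). Whether its change differed from that of Ciita was not tested. The class I genes H2-K1, H2-D1, B2m and Tap1 were higher than Ctrl in Oxali, IFN2000 and Combo2000.

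Markers of cells that carry class II were read beside the members. Cd79b, Ighm, Itgax, Flt3, Cd209a, Clec9a, Adgre1 and Itgam had 0 counts in all 12 libraries. The summed counts of 6 B cell markers were 0 to 3 per library, and those of 7 dendritic cell markers 8 to 20, nearly all from Zbtb46. Of 7 macrophage and monocyte markers, Csf1r moved with the drug, at 0 in the 6 libraries without Oxali and 8 to 19 in those with it, and Lyz2 had at most 1 count without Oxali and 3 to 11 with it. The whole macrophage list summed to 235 to 365 counts without Oxali and 357 to 456 with it, mostly from Cd14. The part of these transcripts in the Cd74 and H2-DM values was not tested. Among 6 epithelial markers Epcam was at 0 in all 12 libraries and Cdh1 and Krt18 had at most 6 and 5 counts, while Krt8 had 353 to 628 and Krt19 1930 to 3960. The label of an epithelial line thus rests on Krt8 and Krt19 here.

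IFN2000 replicate 2 had 174 summed counts of 11 T cell markers and 64 of Ptprc, the leukocyte antigen, against 24 and 0 in replicate 3. Its Cd74 and Ciita counts were 9 and 4, and those of replicate 3 were 8 and 4. H2-Ab1 had 2 counts in this library and 0 in replicate 3. T cell markers summed to 8 to 24 counts in the other libraries without Oxali and 42 to 65 in those with it. In each library with Oxali 2 of the 11 markers, Lck and Trac, were above 3 counts, against 9 in IFN2000 replicate 2. The part of T cell markers in the results was not tested.

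**Figure D4:**
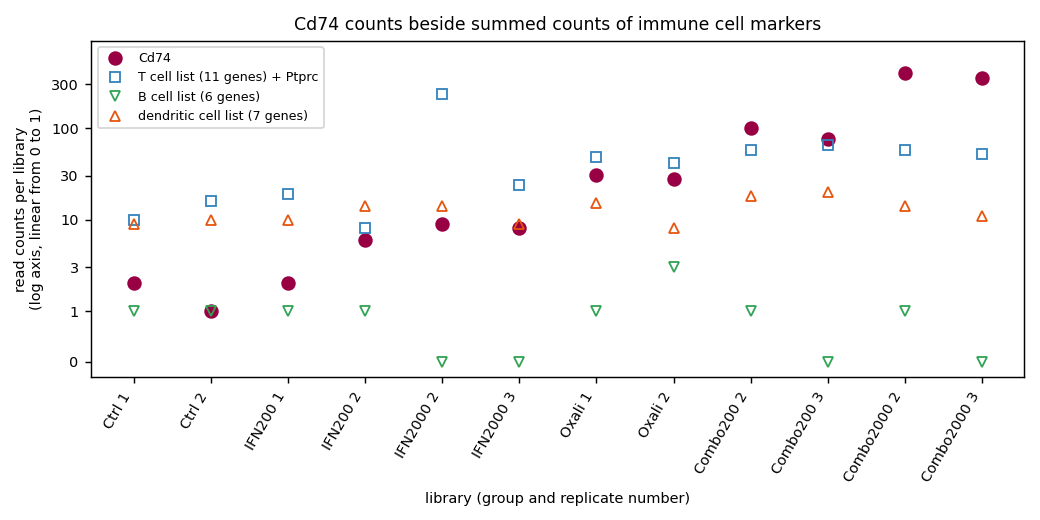
Cd74 counts in each library beside the summed counts of T cell markers with Ptprc, of B cell markers and of dendritic cell markers, on an axis that is logarithmic above 1 count and linear below it. Cd74 is highest in Combo2000, at 396 and 352, where the B cell sum is 1 and 0, and the T cell sum is highest in IFN2000 replicate 2, where Cd74 is at 9. The macrophage and monocyte list is not drawn. It summed to 235 to 365 counts without Oxali and 357 to 456 with it, and Csf1r and Lyz2 in it had more counts with Oxali.

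Across the 12 libraries the members fell into different patterns. Pearson's r of log2 CPM was 0.99 between H2-DMa and H2-DMb1, 0.85 between Ciita and Cd74, 0.87 between Cd74 and H2-DMa, and 0.59 between Ciita and H2-DMa. These are descriptions over libraries that share 6 treatment groups. Ciita lay at 0 to 7 counts in every group but Combo2000, so its values of r lean on that group. Among 10476 other genes the most alike were Stat3, Brip1os and Ccdc25 for Ciita (r = 0.970, 0.969 and 0.967), and Scfd1, Slc2a6 and Isg15 for Cd74 (0.989, 0.985 and 0.984). For H2-DMa they were Slc39a13, Phospho2 and Cenpp (0.991, 0.990 and 0.989), and for H2-DMb1 Slc39a13, Tmx2 and Cntd1 (0.989, 0.986 and 0.985).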

How the data were processed

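The authors deposited raw read counts, 1 row per gene symbol and 1 column per library, and all 12 columns were used. Per the labels, poly(A) RNA was sequenced from a stranded kit. The submitters' processing notes name STAR 2.7.3a, RSEM 1.3.0 and GRCm38, while the study's methods name featureCounts for counting. The deposited counts are whole numbers. Multi-mapping and strand settings were not given in the sources used here.

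Counts were scaled by TMM, filtered with filterByExpr (minimum count 10, minimum total 15), which kept 13177 of 55216 genes, and fitted by quasi-likelihood in edgeR 4.0.16 (R 4.3.3). The model took all 12 libraries, with 6 group means and no covariates, and 13 contrasts were taken at a Benjamini-Hochberg adjusted p under 0.05. An exact permutation test of 2 libraries against 2 cannot go below 0.333, so each call leans on variance estimated over genes and groups together. Ratios of summed counts carry exact 95% intervals for counting error only. SEs on the log2 scale were derived from the fold change and F statistic of each test. Their 95% intervals assume a normal distribution, and both are approximate where counts lie near 0. The code was tested on simulated counts.

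The members, gene lists and tests were chosen with earlier results of these data known, and the p53 list and the overlapping genes were added after the files were read. Named genes were the members, the pathway and class I lists and, for each tested member, the 3 most alike other genes whose log2 CPM averaged 1 or more (prior count 2). Alternatives were other scaling, no filter or a mean of at least 50 counts, DESeq2 1.42.0, a replicate block, only the groups compared, and leaving out each library. Same-numbered libraries did not deviate together (0 of 21 pairs had a correlation over 0.1). With 2 libraries per group, groups that share both numbers give the same value for each, so the 21 pairs are not independent. Gene positions are from GENCODE on GRCm38, and promoters from RefSeq on GRCm38.p6. Values of some genes of these lists are not reported here.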

Additional observations from a re-analysis of the deposited data

Results flagged for a closer look

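T cell markers summed to 174 counts in IFN2000 replicate 2, above the 10 and 16 counts of the Ctrl libraries. Heart muscle markers summed to 158 counts in IFN200 replicate 1, above 15 and 25 in Ctrl. In this IFN200 library Cd74 had 2 counts and Ciita 0, against 6 and 1 in IFN200 replicate 2. These markers lie outside the comparisons of the report, and their part in the members' values was not tested.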

How the results depend on the processing

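The calls of Cd74 in Oxali and in both combinations held under every alternative run, as did those of Ciita in Combo2000 where Ciita was tested. With a mean of at least 50 counts Cd74 alone was tested, so 1 member was called in Oxali, Combo200 and Combo2000 against Ctrl, in Combo2000 against Oxali and Combo200, and in both combinations against IFNγ alone. In IFN2000 against Ctrl 1 member was called without the low-count filter, and 0 to 1 leaving out single libraries. With the replicate number as a block, 3 members were called in Combo200 against Ctrl and against IFN200, where Ciita was lost (adjusted p = 0.0806 and 0.0558). No other member call changed with the block. Without the filter H2-Aa was called in Combo2000 against Ctrl (adjusted p = 0.0159) and IFN2000 (0.00843), not against Oxali (0.101) or Combo200 (0.161). Each of these reference groups held 0 counts of H2-Aa, so this split is not read as a difference between them.

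Pathway genes higher in IFN2000 numbered 8 with DESeq2 size factors, upper-quartile scaling or a mean of at least 50 counts, and 5 to 8 leaving out single libraries, with 8 without IFN2000 replicate 3. Those lower numbered 1 with upper-quartile scaling, DESeq2, the replicate block or only the groups compared, 0 to 2 leaving out single libraries (0 without Ctrl replicate 2 or IFN2000 replicate 2), and 0 without both libraries that held T cell or heart muscle markers. In IFN200 1 was higher without the filter, and 0 to 1 leaving out single libraries (IFN200 replicate 2 or either IFN2000 library). Counting members as detected above 10 counts gave 1 each in Ctrl, IFN200 and IFN2000.

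Values of members that were not called changed sign when single libraries were left out. On the log2 scale they ranged for Ciita from -2.53 to 2.32 in IFN200 and -2.54 to 3.26 in Oxali against Ctrl. For H2-DMa they ranged from -0.47 to 0.19 in IFN2000 against Ctrl and -0.076 to 0.211 in Combo200 against Oxali. For H2-DMb1 they ranged from -0.62 to 0.49 in IFN200 and -0.46 to 0.64 in IFN2000 against Ctrl, -0.13 to 0.49 between the IFNγ doses, and -0.57 to 0.54 and -0.37 to 0.73 for the interactions at 200 and 2000 pg. The Cd74 interaction at 200 pg ranged from -0.33 to 1.25. Without the libraries with T cell or heart muscle markers, an alternative chosen after seeing the data, this interaction was -0.31, Ciita in IFN200 against Ctrl was 0.63, and Ciita in Combo200 against IFN200 had an adjusted p of 0.0593. Called values moved by over 1.5 times for Cd74 in Combo200 against IFN200 without IFN200 replicate 2 (5.28 in place of 4.31) and for Ciita in the same comparison (5.62 in place of 3.31). They moved for Cd74, Ciita and H2-DMb1 in Combo200 against Ctrl without single Ctrl libraries (5.98 for Cd74 without replicate 1, 5.63 for Ciita and 2.48 for H2-DMb1 without replicate 2). The causes were not tested. Depth limits the classical chains and Ciita, which lay within a few counts of 0 in most libraries.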
